A study of Mus musculus with 20 samples.

Results

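Among 23974 autosomal gene loci measured in mouse liver, 22 genes were near absent in one inbred strain and expressed in the other. Each had 3 or fewer counts of read pairs in all 10 livers of one strain, and 15 or more counts in at least 8 of the 10 livers of the other. Genes whose symbols begin with H2-, Trim, Mup or Cyp, and C1s2, were left out by name, which removed 3 genes that met the limits. Of the 22 genes, 13 were expressed in C57BL/6N (B6) mice and 9 in C3H/HeN (C3) mice. The genes were selected on their raw counts in the contrast between the strains, so their strain differences are described here without a test.

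RNA was taken from the left lateral liver lobe of 20 mice at 20 weeks of age, 5 females and 5 males of each strain. The groups were B6 females, B6 males, C3 females and C3 males, and none of the labels gives a treatment or an engineered allele. All mice came from 1 supplier and were singly housed, with the sexes in separate rooms, so that sex and room cannot be told apart. Libraries of total RNA depleted of ribosomal RNA were sequenced in 3 pools. Totals lay between 27370921 and 46835745 counts per library, and pool 3 held the 7 deepest libraries. At these depths the limit of 3 counts was worth between 0.0641 and 0.110 on the counts-per-million (CPM) scale. The 6 hepatocyte markers examined summed to 98390 to 127300 CPM in B6 females and to 134000 to 157800 in C3 females. In males the sums were lower, 74130 to 98230 CPM in B6 and 99170 to 125700 in C3. In bulk RNA, fewer cells of a type and less RNA per cell cannot be told apart.

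Inbred strains differ by DNA sequence variants, insertions and deletions, and a transcript can be missing from the tissue of one strain while its relatives are made in both. Several of the 22 genes belong to families that expanded as clusters of neighbouring copies, such as olfactory receptors, tissue kallikreins and the interferon-inducible Ifi200 genes. In such families the number and sequence of copies often differ between mouse strains. Interferon-inducible and inflammasome genes take part in the sensing of foreign nucleic acid and microbial products, while kallikreins are secreted serine proteases made in large amounts by the salivary glands of mice.

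The clusters are shown first, because 2 pairs of the 22 genes lay within 1 Mb of each other. All coordinates and printed bases are from mm9 (NCBI build 37), the build used by the authors. The sequence of the C3 strain was not examined, here or for the windows and loci below. Klk1b22 (chr7:51368053-51372246) and Klk1b24 (chr7:51443633-51447821) were separated by 71386 bases and were both expressed in C3 livers alone. Their relative Klk1b4 (chr7:51462805-51467124) began 14983 bases beyond Klk1b24. The bases from 250 to 31 upstream of each annotated start are printed on the plus strand, with the hexamer TTTAAA in capitals.
Klk1b22 (chr7:51367803-51368022): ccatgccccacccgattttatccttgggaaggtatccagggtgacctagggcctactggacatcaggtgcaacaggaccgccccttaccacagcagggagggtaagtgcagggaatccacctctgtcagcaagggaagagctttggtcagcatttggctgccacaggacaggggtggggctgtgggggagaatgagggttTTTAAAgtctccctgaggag
Klk1b24 (chr7:51443383-51443602): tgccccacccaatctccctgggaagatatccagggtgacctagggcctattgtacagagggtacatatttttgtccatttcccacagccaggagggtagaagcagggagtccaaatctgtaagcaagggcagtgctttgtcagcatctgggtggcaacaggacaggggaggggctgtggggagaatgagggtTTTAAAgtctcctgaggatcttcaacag
Klk1b4 (chr7:51462555-51462774): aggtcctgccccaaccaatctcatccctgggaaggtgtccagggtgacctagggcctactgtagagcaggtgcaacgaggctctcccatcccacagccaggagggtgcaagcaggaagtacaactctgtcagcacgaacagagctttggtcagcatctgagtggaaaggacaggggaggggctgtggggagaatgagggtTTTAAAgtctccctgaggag
TTTAAA, which reads the same on both strands, occurred in the 250 bases before 12 of the 14 kallikrein genes of this subfamily, against 10.8% of 25283 loci. The 14 windows are those of related copies, so they are not independent. For Klk1b22 and Klk1b24 the windows did not match the promoter listed by RefSeq, so the place of the hexamer relative to the start is uncertain. Identity was taken over the aligned bases of the full 250-base windows, without gaps. Klk1b22 and Klk1b24 were identical at 82.1% of 240 bases, Klk1b22 and Klk1b4 at 83.4% of 247, and Klk1b24 and Klk1b4 at 86.9% of 237. Klk1b24 matched Klk1b21 at 99.5% of 188 aligned bases, and Klk1b21 had no count in any liver. Read pairs that aligned to several places were not counted, so the counts of such close copies are uncertain.

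The other pair, the olfactory receptor genes Olfr1033 (chr2:85860797-85884965) and Olfr1034 (chr2:85886601-85887623), lay on the same strand with 1635 bases between them. Their 250 upstream bases are printed with every CpG dinucleotide in capitals, to show how unlike the 2 windows were.
Olfr1033 (chr2:85860547-85860796): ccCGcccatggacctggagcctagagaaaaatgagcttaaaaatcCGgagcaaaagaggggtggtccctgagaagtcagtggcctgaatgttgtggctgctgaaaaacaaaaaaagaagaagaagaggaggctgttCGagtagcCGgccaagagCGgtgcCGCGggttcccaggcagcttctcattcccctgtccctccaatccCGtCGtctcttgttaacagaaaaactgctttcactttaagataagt
Olfr1034 (chr2:85886351-85886600): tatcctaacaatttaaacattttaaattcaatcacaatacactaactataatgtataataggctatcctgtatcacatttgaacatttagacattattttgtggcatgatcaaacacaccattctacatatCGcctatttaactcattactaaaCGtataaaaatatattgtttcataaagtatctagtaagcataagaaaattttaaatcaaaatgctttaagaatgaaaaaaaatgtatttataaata
The window before Olfr1033 held 9 CpG sites and was 50.8% G or C. The window before Olfr1034 held 2 and was 23.2% G or C. The same window before Ncmap, the only one of the 22 genes that was called different between the sexes, held 17 CpG sites and is shown on the minus strand.
Ncmap (chr4:134954143-134954392): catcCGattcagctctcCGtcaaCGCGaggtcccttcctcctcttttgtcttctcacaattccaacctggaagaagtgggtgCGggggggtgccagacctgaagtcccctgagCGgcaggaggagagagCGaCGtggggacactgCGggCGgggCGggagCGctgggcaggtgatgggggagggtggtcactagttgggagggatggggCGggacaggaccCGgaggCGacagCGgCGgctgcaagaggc
Across the 22 genes, the median was 4 CpG sites in 250 bases, 9 for those expressed in B6 and 3 for those expressed in C3, against 15 for the tested genes placed on a chromosome. Windows with fewer than 5 sites preceded 12 of the 22 genes, against 15.7% of the tested genes and 37.2% of all loci. The windows of Dlgap1 and Gm15698, like those of Klk1b22 and Klk1b24, did not match a promoter listed by RefSeq. No RefSeq promoter was available for Cebpe, Lncbate1, Nlrp1c-ps, Olfr1033, Rprl3 and Tmc5. The windows of all these genes may thus not be their promoters, and several of them held fewer than 5 sites.

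Rprl3 (chr8:3803125-3803361) is annotated as a copy of the RNA subunit of RNase P, the ribonucleoprotein that trims transfer RNA precursors. The gene of the abundant RNA itself is Rpph1. The 237 bases of Rprl3 are printed on the minus strand, with capitals at the 15 bases that differed from Rpph1 in the alignment, which was 93.7% identical.
Rprl3 (chr8:3803125-3803361): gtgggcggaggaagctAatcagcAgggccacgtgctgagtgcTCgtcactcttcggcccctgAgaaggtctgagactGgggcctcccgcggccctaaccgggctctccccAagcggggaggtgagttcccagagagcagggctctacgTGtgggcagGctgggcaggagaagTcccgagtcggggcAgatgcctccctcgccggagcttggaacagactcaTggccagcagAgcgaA

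Both sets were expressed at low to moderate levels. On the deposited transcripts-per-million (TPM) scale, which takes gene length into account, the median level of the 22 genes in their expressing strain was 2.83, from 0.292 for Dlgap1 to 25.0 for Rprl3. The median over the 13704 genes tested was 8.94 in B6 and 8.76 in C3, and 20 of the 22 genes lay below it. Cebpe in B6 and Rprl3 in C3 were the 2 above it. In the strain without expression, the 22 genes had 83 counts in all, and 8 genes had none in any of the 10 livers. These were 4930481A15Rik, Lncbate1 and 1700030C10Rik in C3, and Ifi202b, Klk1b22, Klk1b24, Gm15698 and Ifi44l in B6. The limit of 15 counts was reached in all 10 livers by 19 genes, and 1700030C10Rik, Ppfia4 and Ncmap fell under it in 1 or 2 B6 livers.

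**Figure D1:**
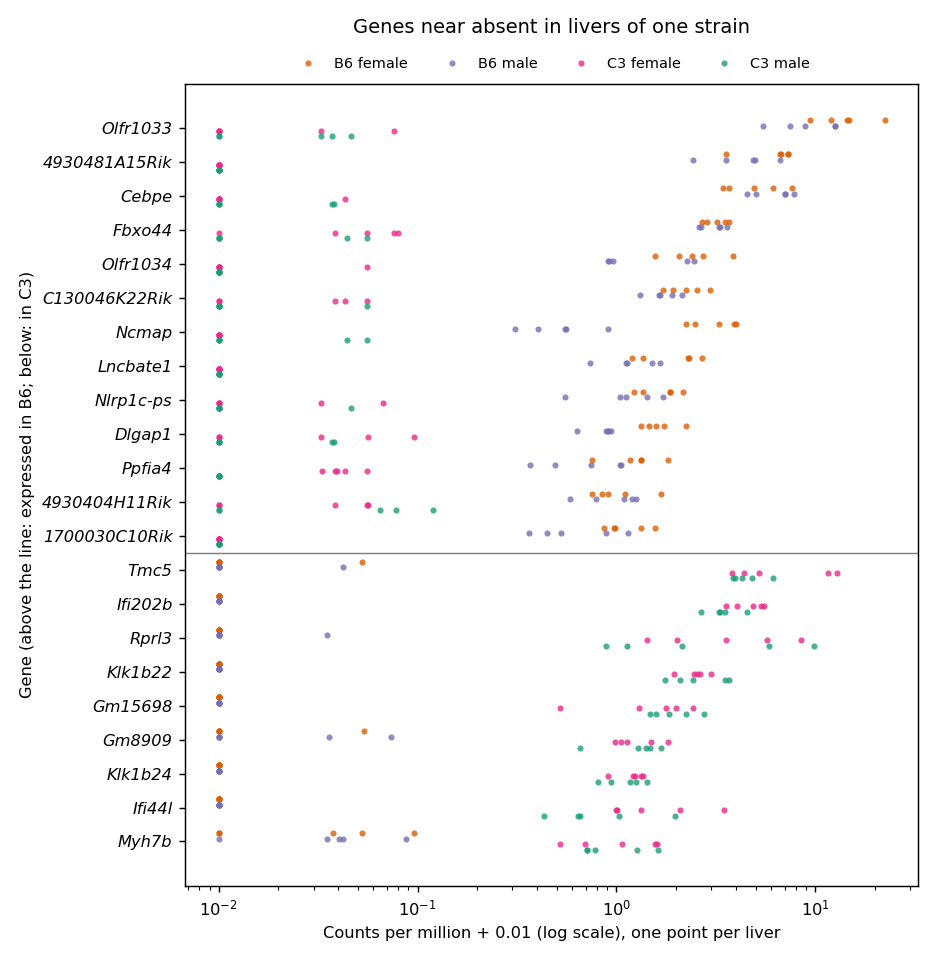
Levels of the 22 genes in each liver. The horizontal axis gives CPM plus 0.01 on a log scale, each point is 1 of 5 livers in a group, and colours mark strain and sex. In each row the livers of one strain have at most 3 counts, worth up to 0.110 CPM before the 0.01 is added, and those of the other lie near or above 0.3 CPM, as the choice of the genes required.

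By kind of transcript, the sets differed in make-up. RefSeq lists 5 of the 13 genes expressed in B6 as long noncoding RNAs, 1 as a transcribed pseudogene and 7 as protein coding. Of the 9 genes expressed in C3, 8 were protein coding and 1 was an RNase P RNA, with no long noncoding RNA among them. Of 13687 tested genes with a listed type, 95.1% were protein coding and 3.51% were long noncoding RNAs. The genes lay on 11 chromosomes.

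Olfr1033 was the most abundant of the 13 genes expressed in B6 by CPM. Olfactory receptors are G protein-coupled receptors known for odorant detection in the nose. In B6 females Olfr1033 had 1049, 664, 271, 434 and 514 counts, and in B6 males 170, 250, 503, 486 and 292. In C3 females it had 2, 1, 0, 0 and 0 counts, and in C3 males 1, 1, 0, 1 and 0. The level in B6, 12.0 ± 4.75 CPM (SD, n = 10), was 750.0 times that in C3 from the summed counts, with an exact 95% interval of 344.3 to 2045 that covers counting error only. All fold values and intervals for the genes below were computed the same way. Olfr1034 had 179, 124, 45, 75 and 83 counts in B6 females and 28, 32, 91, 95 and 30 in B6 males, and a total of 2 counts in C3. Within each B6 liver, Olfr1034 had between 10.3 and 19.6 counts per 100 counts of Olfr1033, with a median of 16.8. By TPM the gap was narrower, with medians of 6.70 for Olfr1033 and 4.33 for Olfr1034.

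Cebpe encodes C/EBP epsilon, a transcription factor of late granulocyte maturation. It had 287, 224, 220, 133 and 118 counts in B6 females and 244, 169, 281, 272 and 150 in B6 males. Only 3 of the 10 C3 livers had a count, 1 each, so that Cebpe was 679.3-fold higher in B6 (232.1 to 3296). Its relatives were made in both strains. Cebpa, the main C/EBP factor of hepatocytes, had 4112 to 11441 counts in B6 and 3505 to 10168 in C3. None of the 5 relatives tested (Cebpa, Cebpb, Cebpd, Cebpg and Ddit3) was called different between strains in either sex, against 9.40% of all genes called in females and 9.64% in males. Here and below a gene was called at an adjusted p under 0.001 and a log2 fold change over 0.5 in the edgeR quasi-likelihood test. Cebpd in females, with a log2 fold change of -0.68, C3 minus B6, had an adjusted p of 0.0113 in edgeR. The 6 neutrophil markers examined summed to at most 4.69 CPM in any liver. Among them, Ly6g had 15 to 71 counts per liver, S100a9 3 to 48 and S100a8 1 to 41. Elane had at most 8 counts in any liver, Ltf at most 4 and Mpo at most 1. None of the 3 markers tested was called between strains.

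Fbxo44 encodes a substrate-recognition subunit of SCF ubiquitin ligases. In B6 females it had 149, 123, 101, 133 and 98 counts, and in B6 males 112, 87, 131, 129 and 88. C3 females had 2, 2, 3, 1 and 0 counts and C3 males 0, 0, 0, 2 and 1, a 101.6-fold difference (56.6 to 204.2). Relative to its mean it varied least of the 13 genes among B6 livers, at 3.12 ± 0.404 CPM (SD, n = 10). Its closest relative and neighbour Fbxo6, 663 bases away, had 669 to 1839 counts in B6 and 651 to 1015 in C3 and was not called in either sex. The log2 fold change of Fbxo6, C3 minus B6, was -0.30 in females and -0.54 in males, with adjusted p of 0.0575 and 0.00182 in edgeR. Fbxo17 was not called either, and Fbxo2 and Fbxo27 had at most 10 counts in every liver.

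The remaining protein-coding genes expressed in B6 are best known from the nervous system. Ncmap encodes a membrane protein of noncompact myelin. Dlgap1 encodes a scaffold of the postsynaptic density, and Ppfia4 encodes liprin alpha 4, a scaffold of synaptic active zones. Ncmap had 187, 179, 95, 90 and 77 counts in B6 females and 17, 10, 22, 35 and 13 in B6 males, and 3 counts in all C3 livers together. Dlgap1 had 62, 72, 42, 81 and 60 counts in B6 females, 29, 21, 36, 35 and 29 in B6 males, and 8 in all C3 livers, 3 of them in 1 female. Ppfia4 had 62, 83, 38, 27 and 40 counts in B6 females and 23, 12, 42, 40 and 16 in B6 males. Each of the 5 C3 females had 1 or 2 counts of Ppfia4, and the 5 C3 males had none.

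The 5 long noncoding RNAs expressed in B6 were 4930481A15Rik, C130046K22Rik, Lncbate1, 4930404H11Rik and 1700030C10Rik. The most abundant, 4930481A15Rik (chr19:5406815-5422847), had 341, 303, 103, 244 and 252 counts in B6 females and 156, 81, 143, 257 and 160 in B6 males. No C3 liver had a count, so that it was at least 660.5-fold higher in B6, set against 3 counts over the 10 C3 livers. It overlaps 44 bases of Drap1 on the opposite strand, which the strand-specific counting told apart. C130046K22Rik had 104, 78, 73, 70 and 102 counts in B6 females and 59, 71, 66, 63 and 43 in B6 males, with 6 in all C3 livers. Lncbate1, known as a regulator of brown fat identity, had 126, 105, 67, 49 and 41 counts in B6 females and 35, 37, 66, 58 and 24 in B6 males, and none in C3. It was thus at least 196.9-fold higher in B6. The 6 adipocyte markers summed to 2.34 to 9.14 CPM in B6 males and to at most 0.629 CPM in any other liver, B6 females included. In B6 males Cidec had 50 to 166 counts and Cfd 23 to 114, whereas Adipoq had 0 to 1, against 1 to 4 in B6 females. Retn had at most 5 counts in B6 males, Plin1 had 0 there, and Lep had 0 in every liver. Lncbate1 was present in the B6 females at this low level of the markers, and the part of fat cells in its strain difference was not tested. 4930404H11Rik was the gene with the smallest fold in either set, 27.5 (15.9 to 52.1), with 13 counts in all C3 livers.

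Nlrp1c-ps is a transcribed pseudogene of the NLRP1 inflammasome sensors. It had 101, 85, 39, 44 and 64 counts in B6 females and 17, 37, 57, 66 and 34 in B6 males, and 4 counts in all C3 livers. Among 18 related genes of the NLR and inflammasome list, 4 were lower in C3 than in B6 in females and 4 in males, with none higher in either sex. Of all genes, 4.77% were lower in females and 5.55% in males of C3. The median log2 fold changes of the list were -0.69 and -0.57 against 0.02 and 0.01 for all genes. Nlrp12, a cytosolic sensor of the same family, had 643 to 1805 counts in the B6 livers and 4 to 35 in the C3 livers, with no overlap. Its log2 fold change was -6.27 ± 0.31 (SE) in females and -4.97 ± 0.28 in males, with adjusted p of 1.35e-11 and 9.21e-11 in edgeR. Nlrp1a, next in size in females, fell by 3.14 on the log2 scale in females and by 2.72 in males, from 7 to 36 counts in B6 to at most 4 in C3. Naip5 and Nlrc4, parts of the inflammasome for bacterial flagellin, were called lower in C3 females only, and Naip1 and Pycard, the adaptor of inflammasomes, in C3 males only. A difference of the strain effect between the sexes was not detected for these 4 genes (adjusted p 0.238 to 0.580 for the interaction in edgeR). Kupffer cells express several of these genes. Of 6 Kupffer cell markers, 3 were called lower in C3 females and 2 in C3 males, and their summed level ran from 347.3 to 485.4 CPM in B6 females against 237.7 to 369.2 in C3 females, and from 210.8 to 344.6 in B6 males against 153.8 to 230.9 in C3 males. Their part in the lower NLR values was not tested. Nor was the part of aligning reads of both strains to mm9 and leaving out pairs that aligned to several places.

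Tmc5 was the most abundant of the 9 genes expressed in C3 by CPM. It belongs to the transmembrane channel-like family, whose best-known members serve hearing. C3 females had 351, 190, 164, 451 and 177 counts, and C3 males 168, 176, 137, 188 and 116. Of the 10 B6 livers, 8 had none and the other livers 1 and 2, so that Tmc5 was 726.9-fold higher in C3 (248.4 to 3527). Its neighbour and relative Tmc7, 12610 bases away, went the other way. Tmc7 had 53 to 83 counts in B6 females against 20 to 46 in C3 females, and 113 to 203 in B6 males against 34 to 73 in C3 males. The log2 fold change, C3 minus B6, was -0.90 ± 0.21 (SE) in females and -1.36 ± 0.19 in males, with adjusted p of 0.00246 and 1.90e-05 in edgeR, so that only the difference in males was called. The fold change did not differ detectably between the sexes (adjusted p = 0.462 for the interaction in edgeR). Tmc6 was also called lower in C3 males, at -0.76 ± 0.11. None of the 5 relatives tested was called in females.

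Ifi202b (chr1:175892700-175912975) encodes p202, an interferon-inducible protein that binds double-stranded DNA and lacks the pyrin domain of its relatives. C3 females had 108, 176, 229, 170 and 187 counts, and C3 males 124, 120, 124, 146 and 78. All 10 B6 livers had 0, and Ifi202b was at least 501.7-fold higher in C3. The relatives in the same cluster on chromosome 1 mostly went the other way. Of 9, 6 were lower and 1 higher in C3 females, and 5 were lower and none higher in C3 males, with median log2 fold changes of -1.10 and -1.01. Of all genes, 4.77% were lower and 4.63% higher in females, and 5.55% and 4.09% in males. Pydc4 had 12 to 86 counts in B6 and 0 to 5 in C3, and its log2 fold change was -4.31 ± 0.43 (SE) in females and -4.41 ± 0.53 in males. Ifi204, a sensor of foreign DNA, had 336 to 1065 counts in B6 and 57 to 147 in C3, with log2 fold changes of -2.57 ± 0.15 in females and -2.35 ± 0.16 in males. Pyhin1, Ifi205 and Mnda were likewise lower in both sexes, and Mndal in females. Pydc3 was the exception, higher by 1.76 ± 0.32 on the log2 scale in C3 females, from 6 to 19 counts in B6 to 14 to 60. Ifi203, the nearest tested gene on the lower side at 19896 bases, was not called in either sex, with log2 fold changes of 0.14 and 0.36. Ifi205 on the upper side, 29153 bases away, had log2 fold changes of -1.73 and -1.57. The Kupffer cell marker levels given above moved in the same direction, and their part was not tested. Reads of both strains were aligned to mm9, and pairs that aligned to several places were not counted. The part of this in the lower counts of the relatives in C3 was not tested either.

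**Figure D2:**
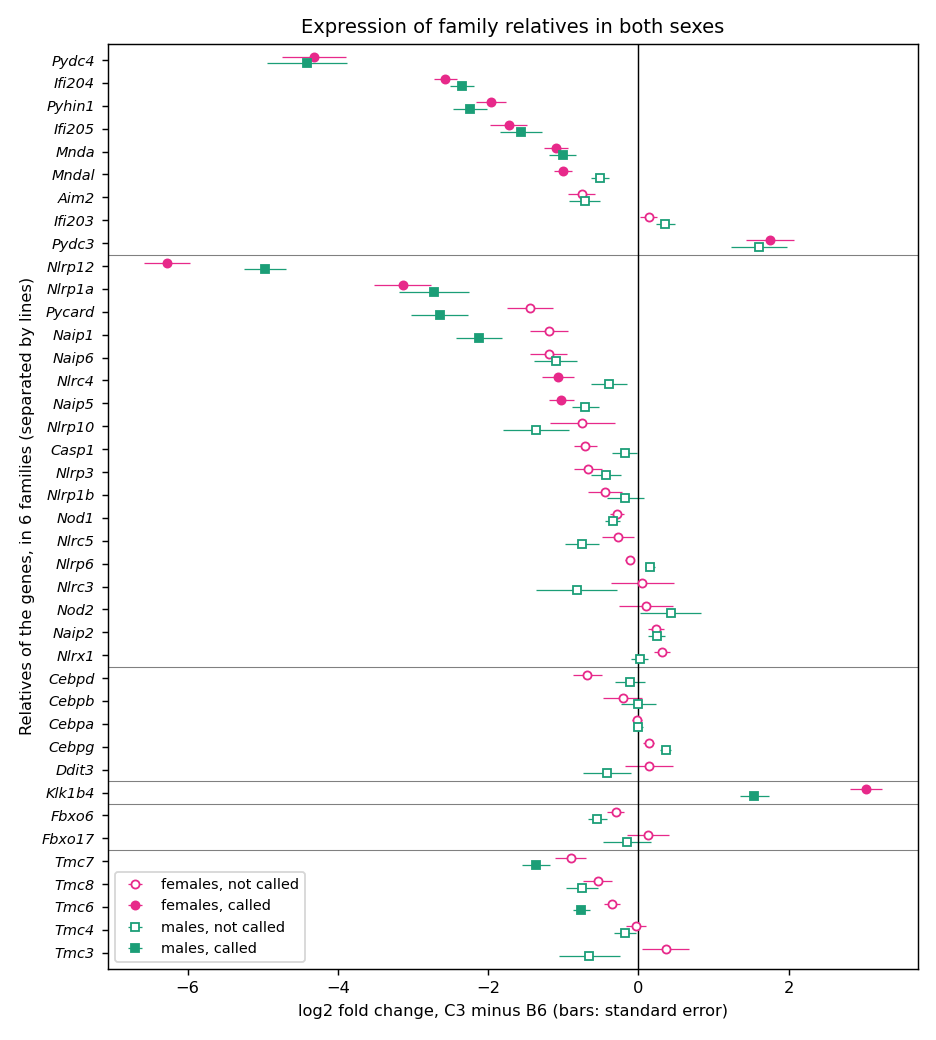
Strain differences of 40 tested relatives in 6 families. The horizontal axis is the log2 fold change, C3 minus B6, with bars for the standard error, circles for females and squares for males, filled where called. Most filled points of the Ifi200 and NLR groups (the first 2 blocks) lie left of 0, the C/EBP block has none, and Klk1b4 lies right of 0 in both sexes.

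Ifi44l (chr3:151421701-151425855) is named for its induction by interferon. It had 30, 91, 149, 46 and 34 counts in C3 females, 28, 23, 15, 86 and 19 in C3 males, and 0 in every B6 liver, at least 178.8-fold higher in C3. Its close relative Ifi44, 8777 bases away and chosen after its values were seen, had 59 to 359 counts in B6 and 77 to 384 in C3. The log2 fold change of Ifi44 was 0.04 in females and 0.52 in males, with adjusted p of 0.907 and 0.0820 in edgeR. Among the livers, Ifi44l was highest in sequencing pool 3, at 1.95 to 3.45 CPM in 3 livers against 0.422 to 1.31 in the other 7. The pool term of the fit had an adjusted p of 0.00268 in edgeR, while 60.1% of all genes had one under 0.05.

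Klk1b22 had 59, 114, 129, 86 and 86 counts in C3 females and 96, 89, 130, 91 and 51 in C3 males. Klk1b24 had 41, 39, 52, 46 and 42 in C3 females and 34, 34, 50, 35 and 34 in C3 males. Neither gene had a count in any B6 liver, and they were at least 319.5-fold and 139.7-fold higher in C3. Klk1b24 had between 34.2 and 69.5 counts per 100 counts of Klk1b22 in each C3 liver, with a median of 39.4. Beside these 2, the only kallikrein of the subfamily above 10 counts was Klk1b4, known as the alpha subunit of the salivary nerve growth factor complex. Klk1b4 had 22 to 67 counts in B6 females against 207 to 383 in C3 females, and 55 to 134 in B6 males against 201 to 365 in C3 males. It was higher in C3 by 3.03 ± 0.21 (SE) on the log2 scale in females and by 1.54 ± 0.19 in males, with adjusted p of 2.16e-09 and 5.04e-06 in edgeR. The difference between these fold changes was 1.48, with an adjusted p of 0.00602 for the interaction. Unlike Klk1b22 and Klk1b24, Klk1b4 had 22 counts or more in every B6 liver.

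Rprl3 had 108, 249, 367, 70 and 48 counts in C3 females and 58, 32, 40, 431 and 171 in C3 males. A single B6 male had 1 count, and the other 9 B6 livers had none, which gives a ratio of 1621 with an interval of 290.4 to 64050. Relative to its mean, Rprl3 spread more among livers than any other of the 9 genes, at 4.09 ± 3.20 CPM (SD, n = 10). Its level followed the sequencing pool. The 3 livers of pool 2 had 2.12 to 5.83 CPM and the 3 of pool 3 had 5.70 to 9.79, while the 4 of pool 1 lay below all of these, from 0.873 upwards, and the pool term had an adjusted p of 2.86e-05 in edgeR. Rpph1, the abundant RNase P RNA, had 10184 to 34964 counts in C3. It was not called between strains in either sex, with log2 fold changes of 0.20 and 0.44. In C3 livers Rpph1 was lowest in pool 1 as well, at 277.7 to 478.9 CPM against 520.5 to 1076 in pools 2 and 3. The counts of Rprl3 came to 0.253 to 1.23% of those of Rpph1 in C3 livers and to at most 0.00575% in B6 livers. A further copy, Rprl2, had 157 counts in 1 C3 female and 235 in 1 C3 male, 1 to 28 in the other C3 livers and none in B6. Rpph1, Rprl1, Rprl2, Rmrp and Cfd were, like Ifi44, looked up after values had been seen. Reads of both strains were aligned to mm9, and the sequence of the RNase P RNA genes in C3 was not analysed here.

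**Figure D3:**
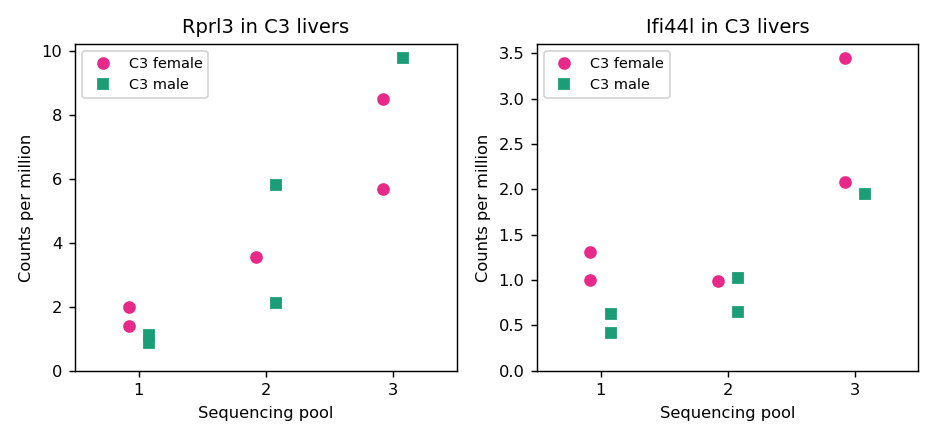
Rprl3 and Ifi44l in the 10 C3 livers by sequencing pool. The vertical axes give CPM, circles are females and squares are males. For both genes the 3 livers of pool 3 include the highest values, and for Rprl3 the 4 livers of pool 1 lie below the rest.

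The remaining genes expressed in C3 were Gm15698, Gm8909 and Myh7b. Gm15698 had 73, 56, 22, 69 and 60 counts in C3 females, 61, 101, 65, 69 and 43 in C3 males, and 0 in B6, at least 212.4-fold higher in C3. Gm8909, next to H2-T10 in the major histocompatibility complex, had 23 to 73 counts in C3 and 5 in all B6 livers. Myh7b, a slow myosin heavy chain gene that holds the microRNA gene Mir499, had 48, 30, 22, 54 and 36 counts in C3 females and 21, 59, 25, 31 and 37 in C3 males. Myh7b had 12 counts in all B6 livers and the lowest fold of the 9 genes, 31.1 (17.6 to 60.8). It overlaps Trpc4ap by 31 bases on the opposite strand, and Mir499 had no count.

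Sex was not used to choose the genes, so it was tested within the strain that expressed each one. The limit of 15 counts in 8 of 10 livers kept out any gene silent in one sex. Of the 13 genes expressed in B6, 1 was called between females and males, against 6.34% of all genes, and of the 9 expressed in C3 none was, against 6.90%. At an unadjusted p under 0.05, 9 of the 13 and 2 of the 9 differed in edgeR, against 44.4% and 49.0% of all genes, and DESeq2 called 1 and 0. Ncmap was the gene called, higher in females, as were 3.23% of all genes. Its counts in females, 77 to 187, did not overlap those in males, 10 to 35, and its level was 3.17 ± 0.807 CPM (SD, n = 5) in females and 0.536 ± 0.229 in males. The log2 fold change was 2.51 ± 0.20 (SE), with an adjusted p of 2.97e-07 in edgeR, and within the 3 pools it was 2.76, 2.60 and 2.45. Pool 2 held only 2 B6 livers, a female and a male.

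At an adjusted p under 0.05 with no limit on the fold, 7 of the 13 genes differed between the sexes of B6, against 34.6% of all genes, and 1 of the 9 differed in C3, against 40.0%. In B6, 6 of the 7 were higher in females. Besides Ncmap these were Dlgap1 at 0.88 ± 0.23 (SE) on the log2 scale, Ppfia4 at 0.75 ± 0.19, Olfr1034 at 0.74 ± 0.20, Lncbate1 at 0.60 ± 0.18 and Olfr1033 at 0.59 ± 0.14, with adjusted p of 0.00414 to 0.0250 in edgeR. Dlgap1 was the only one of these whose CPM did not overlap between the sexes. The share of all genes without such overlap is not given here. Cebpe was higher in males, with a log2 fold change of -0.39 ± 0.13 and an adjusted p of 0.0330 in edgeR. In each pool, the 6 genes were higher in females and Cebpe was higher in males. Pool 2 held only a female and a male of B6, and Cebpe was about level there, at -0.04. Leaving out single livers kept the adjusted p under 0.05 in all 10 fits for Ncmap, Dlgap1, Ppfia4, Olfr1033 and Olfr1034, but in only 4 for Lncbate1 and 3 for Cebpe. Without the pool term, 2 of the 13 genes, Ncmap and Dlgap1, had an adjusted p under 0.05 in edgeR, against 14.1% of all genes. In the fit blocked on replicate number it was 6, without Lncbate1 and Cebpe and with 4930481A15Rik, against 30.9%. Tmc5 was the gene in C3, at 0.71 ± 0.25 with an adjusted p of 0.0288 in edgeR. Replicates 1 and 4 of the females, with 351 and 451 counts, lay above the other 8 livers, and the rest of the sexes overlapped. The within-pool values of Tmc5 were 1.06, 1.20 and -0.07, and the adjusted p stayed under 0.05 in 5 of 10 fits that each left out a liver. Without the pool term it was 0.154 in edgeR, and DESeq2 gave no gene of the 9 an adjusted p under 0.05. The other 14 genes had log2 fold changes between -0.31 and 0.69 that did not pass, and Fbxo44, at -0.02 ± 0.16, was about level between the sexes.

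**Figure D4:**
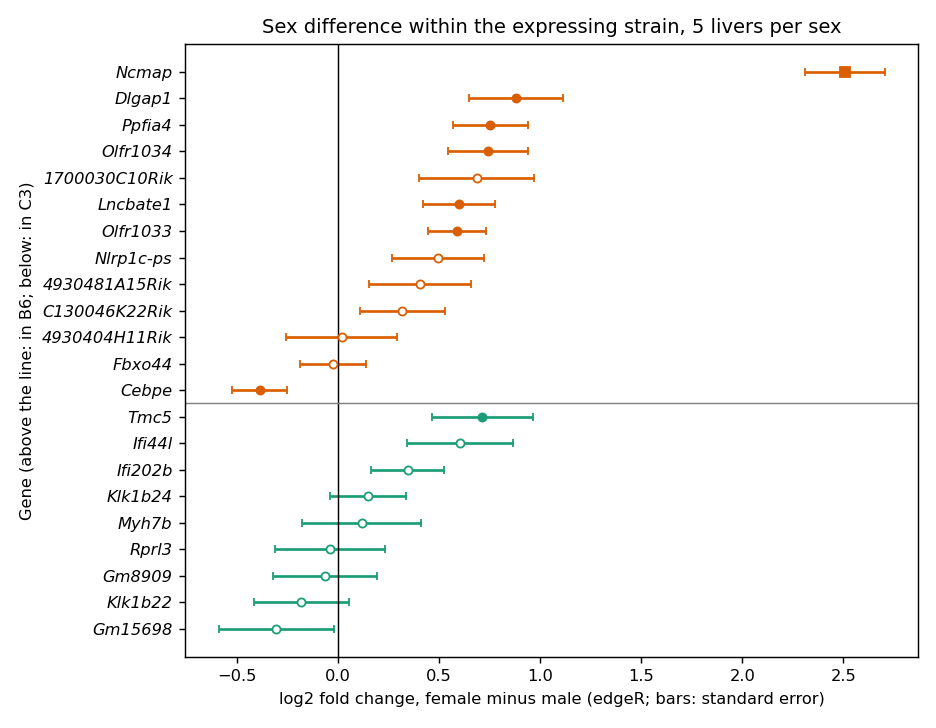
Sex differences of the 22 genes in the strain that expresses each. The horizontal axis is the log2 fold change, female minus male, with bars for the standard error from edgeR, a square for the gene called and filled circles for an adjusted p under 0.05. Ncmap at 2.51 stands right of all others, which lie between -0.39 and 0.88.

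The genes on either side were examined to see whether strain differences extended along the chromosome. For each of the 22 genes the nearest tested gene on each side was taken, leaving out overlapping genes, which gave 40 genes at gaps of 13 bases to 4384947 bases, with a median of 48569.5. In females 9 of the 40 (22.5%) were called between strains, 6 higher and 3 lower in C3, and in males 10 (25.0%), 7 higher and 3 lower. This compares with 9.40% of all genes in females, 4.63% higher and 4.77% lower, and with 9.64% in males, 4.09% higher and 5.55% lower. Without the pool term 7 and 6 of the 40 were called, against 5.95% and 6.43% of all genes. Without a filter on low counts the same 40 genes gave 9 and 9 calls, but the 40 nearest genes chosen anew among all 18716 gave 5 and 5, against 7.07% and 7.25%. Within 500 kb, 38 of 257 genes (14.8%) were called in females and 39 (15.2%) in males. Neighbours share chromosomal segments and some were relatives, so they are not independent of each other. Neither neighbour was called in either sex for 8 of the 22 genes.

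Among the neighbours, 7 were called in both sexes, and 3 of these differed in the direction of the gene beside them. Klk1b4 beside the kallikrein pair was one. Cd209b, which encodes a C-type lectin receptor and lies 114293 bases from Rprl3, had 17 to 45 counts in B6 and 43 to 141 in C3, and was higher in C3 by 2.06 ± 0.17 (SE) and 1.57 ± 0.19 on the log2 scale in females and males. The third was 5730507C01Rik, 2268192 bases from 1700030C10Rik, with 4 to 21 counts in B6 and 0 to 2 in C3 and log2 fold changes of -3.65 ± 0.74 and -3.28 ± 0.67.

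The other 4 went against the gene beside them, and 3 of them are described. Gosr2, which encodes a SNARE protein of the Golgi, lay 13 bases from C130046K22Rik on its lower side. Gosr2 was higher in C3 by 0.71 ± 0.10 and 0.83 ± 0.11 on the log2 scale in females and males, while C130046K22Rik was near absent there. Tnks1bp1, which encodes a tankyrase-binding protein and is the nearest tested gene below the olfactory receptor pair at 947591 bases, was higher by 0.72 ± 0.08 and 0.78 ± 0.08. Ifi205, described with its family, was lower in C3. Close by several other genes, neighbours were level, as with AI837181 at 2296 bases from 4930481A15Rik, with log2 fold changes of 0.03 and 0.15, and Coil at 7017 bases from Gm15698, with 0.01 and 0.13.

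**Figure D5:**
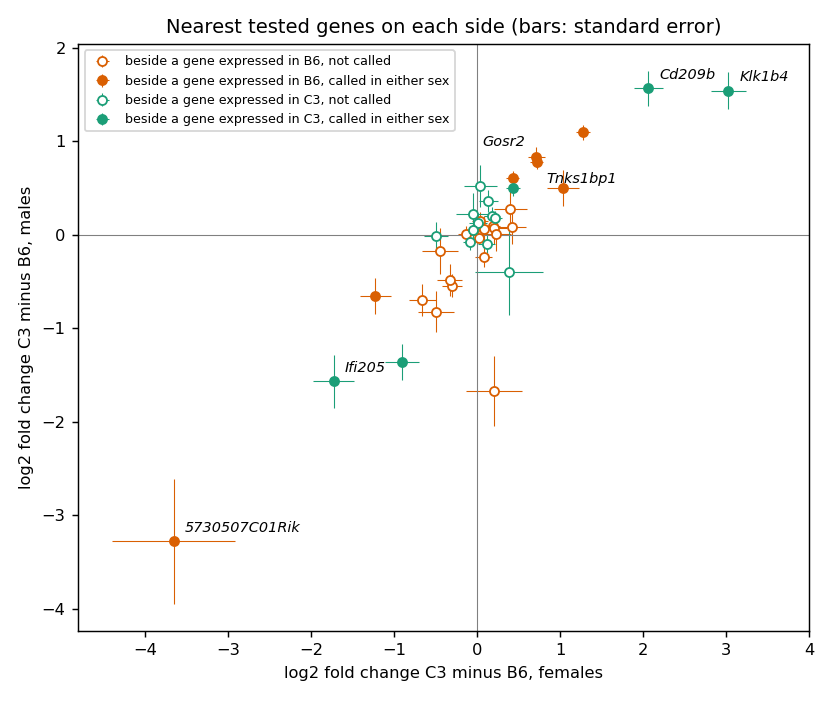
Strain differences of the 40 nearest tested genes. The axes give the log2 fold change, C3 minus B6, in females (horizontal) and males (vertical) with standard errors, and colour marks the strain that expresses the gene beside each. Filled points were called in either sex, and the 6 named ones were called in both. Klk1b4, Cd209b and 5730507C01Rik differed in the direction of the gene beside them.

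The number of genes depended on the limit set for absence. With at most 0, 1 and 2 counts allowed in the strain without expression, 8, 10 and 18 genes qualified, and with 4 and 5 counts 30 and 39 did. At the limit, 4930404H11Rik, Dlgap1, Fbxo44 and Myh7b each had 3 counts in at least 1 liver of the strain without expression. Just outside, with 4 counts, were A830052D11Rik, Ankrd2, Nxpe4, Rab6b and Ube2u, expressed in B6, and Fut1, Gpr179 and Hist1h2al, expressed in C3. Hist1h2al had 167 to 394 counts in C3 and Ube2u 86 to 213 in B6, above most of the genes inside. For expression, Ncmap was inside with 15 counts in 8 livers, while Mir292b, Fam19a2, Zfp433 and 2410004I01Rik reached it in 7.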

How the data were processed

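Liver RNA of 20 mice, in 4 groups of 5, was measured by paired, strand-specific RNA sequencing. The authors trimmed reads with Cutadapt 1.9.1, aligned both strains to mm9 with STAR 2.5.1b, and counted read pairs on RefSeq genes with featureCounts (Subread 1.5.0-p1), without multimapping or multi-overlapping pairs. The authors deposited raw counts per gene without normalization, and a table of TPM whose gene lengths are not given in the sources used here. Headers of the symbol and identifier columns are exchanged and were read by content. All per-sample columns were used.

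Groups came from the sample titles. CPM is the count over the library total. In R 4.3.3, counts kept by filterByExpr (13704 genes) were normalized by TMM and fitted with edgeR 4.0.16 (quasi-likelihood, group and pool, all 20 libraries). P-values were adjusted by Benjamini-Hochberg over all genes tested. A gene was called at an adjusted p under 0.001 and an absolute log2 fold change over 0.5, the thresholds of the study. Folds of the 22 genes are ratios of summed counts per summed totals, with exact 95% intervals, or bounds against 3 counts over 10 libraries, and cover counting error only, since PCR reads without molecular identifiers are not independent molecules. Sequences were read from the mm9 genome and aligned with Biopython 1.88. Positions are 1-based. The fit was tested on simulated data.

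The genes, gene lists and tests were chosen with earlier results of these data known. The rule for named genes took all 22 genes, neighbours called in both sexes, and family genes called in either sex or closest to one of the 22. One gene selected by this rule is not reported here. Lists were examined where they held one of the 22 genes. Alternatives were DESeq2 1.42.0 (test or size factors), no filter, no pool term, a replicate block, fits of 2 groups, other thresholds and each liver left out. Separate mice were the replicates.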

Additional observations from a re-analysis of the deposited data

Results flagged for a closer look

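In 2 of 44 groups of 5 livers, taken over the 22 genes in their expressing strain and sex, 1 liver lay far from the other 4 (gap over range above 0.71, which chance gives in about 1 of 20 groups). For 4930481A15Rik in B6 females, replicate 3 had 3.56 CPM, and the others had 6.60 to 7.28. For Dlgap1 in B6 males, replicate 2 had 0.627 CPM, and the others had 0.876 to 0.927. Leaving out a liver moved the log2 fold change between the sexes over 0.20 to 0.61 for 4930481A15Rik and over 0.73 to 0.98 for Dlgap1.

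The strain difference of Klk1b4 was larger in females than in males by 1.48 on the log2 scale, with an adjusted p of 0.00602 for the interaction in edgeR. It was the only one of 74 neighbours and family genes with an adjusted p under 0.05 for the interaction, against 2.96% of all genes. Klk1b4 was higher in C3 in both sexes, and the B6 livers had 1.11 ± 0.646 CPM (SD, n = 5) in females and 2.69 ± 1.23 in males.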

How the results depend on the processing

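The counts of genes called between the sexes, 1 in B6 and 0 in C3, were the same under DESeq2, its size factors, no filter, no pool term, the replicate block, fits of 2 groups and every liver left out. They became 7 and 1 with an adjusted p under 0.05 and no limit on the fold. Of the 40 neighbours, 9 and 10 were called in females and males. These became 5 and 5 without a filter on low counts, with the nearest genes chosen anew, 15 and 18 at an adjusted p under 0.05, and 38 and 39 of 257 within 500 kb, and without the pool term 6 were called in males. Of the 40 family genes, 12 were called in each sex, against 9.40% of all genes in females and 9.64% in males. In males it was 7 without the pool term, against 6.43%, and 7 with the replicate block, against 7.55%. At an adjusted p under 0.05 it was 24 in each sex. The cause of these changes was not tested. The shares of all genes between strains at an adjusted p under 0.05 are not given here. The 15 and 18 neighbours and 24 family genes at that limit can therefore not be read as an excess. Leaving out single livers gave 1 to 1 and 0 to 0 calls for sex, 7 to 9 and 7 to 10 neighbours, and 10 to 12 and 10 to 14 family genes. With 0 counts in place of 3, 8 of the 22 genes remained in the set. When counts were scaled to the median library, 19 genes met the limits in place of 22.

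Replicate numbers are shared between groups, but nothing in the labels says that they pair mice. Same-numbered livers did not deviate together in every pair, with lowest r of -0.46 to -0.17 and highest r of 0.016 to 0.63. With pool effects removed, the lowest r were -0.20 to -0.044 and the highest 0.12 to 0.32. With the replicate block the neighbours called were 8 in females and 7 in males, and the family genes 11 in females. Of all genes, 7.84% were called in females and 7.55% in males in that fit. The block reversed the sex difference of Gm8909 (0.020, adjusted p 0.971 in edgeR) and of Rprl3 (0.31, adjusted p 0.187). The latter was also reversed by DESeq2 (0.018) and without the pool term (0.011).

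Of 132 sex differences of single genes under other settings, 128 kept direction and call, and of 220 with a liver left out, 205 did. The others were small differences that changed sign, over -0.16 to 0.19 for 4930404H11Rik, -0.14 to 0.058 for Fbxo44, -0.20 to 0.12 for Gm8909, -0.090 to 0.34 for Myh7b and -0.21 to 0.29 for Rprl3. Depth limits absence: 3 counts were worth 0.0641 to 0.110 CPM, and a gene below that is not shown to be silent.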
